A study of Mus musculus with 50 samples.

Results

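The genes described here are the axon guidance receptors and ligands of the mouse. They were chosen by gene symbol and not by a measured value, though earlier results of these data were known. They comprise 74 of the 55385 genes in the expression files. Of these, 14 encode Eph receptors, 8 ephrins, 7 secreted semaphorins, 13 membrane-bound semaphorins and 11 plexins or neuropilins. Another 4 encode Robo receptors, 3 Slit ligands and 4 netrins. The group of netrin receptors has 6 genes, Dcc and those with an Unc5 symbol, with Unc5cl placed there by its symbol alone. A further 4 were caught by the spelling of their symbol only, namely Unc50 and 3 transcripts antisense to Plxna4.

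The study sequenced RNA from motor neurons in 28 libraries and profiled accessible DNA by ATAC-seq in 22, to follow these cells from their birth to old age and through maturation in a dish. In vivo there were 3 RNA libraries at each of P4, P21, P56 and E10.5 and a pair at each of P13, E13.5 and 2 years. In vitro RNA came from 2 libraries each at DIV0 and DIV7 (days in vitro) and from 3 each at DIV28 and at DIV28 with 1 µM tetrodotoxin (TTX), a sodium channel blocker that silences action potentials and was present from DIV0 on. ATAC-seq had 2 libraries for each age and culture condition. For E10.5, GFP-positive whole cells of HB9-GFP embryos were sorted and pooled, whereas every other library came from nuclei carrying a tag that the labels write as SUN1-GFP-3xMYC and the methods as SUN1-sfGFP-Myc, switched on by Chat-Cre on a C57BL/6 background. These nuclei were captured on beads with an antibody to GFP for RNA and sorted by flow cytometry for ATAC-seq. The E10.5 cells came from brachial, thoracic and lumbar cord, whereas the in vivo nuclei for RNA came from brachial and lumbar cord only. Age, RNA source and cord level thus cannot be told apart where E10.5 RNA is compared. For ATAC-seq the E10.5 cells were whole and went through a different protocol from the nuclei, which were processed by OMNI-ATAC. Age, input and protocol thus cannot be told apart where E10.5 peaks are compared. Chat-Cre marks all cholinergic neurons and not motor neurons alone, and each in vivo nuclear library pooled spinal cords of several animals. The cultured neurons were differentiated from embryonic stem cells labelled with the same Chat-Cre;SUN1-GFP-3xMYC genotype and, after DIV0, were kept on mouse cortical astrocytes. The study describes their protocol as giving cervical identity, whereas the tissue RNA also held lumbar nuclei. Cord level thus also differs where culture is compared with tissue.

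Growth cones steer by 4 classic ligand families. Ephrins, which are tethered to membranes, act through Eph receptor tyrosine kinases, semaphorins act through plexins with neuropilins as partners for the secreted class, Slits repel through Robo receptors, and netrins attract through Dcc and repel through Unc5 receptors. In the spinal cord the same proteins set where motor axons leave, which limb muscle they enter and which axons are kept from the midline, and several are made by motor neurons as well as sensed by them.

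Total expected counts per RNA library ranged from 2704682 to 21823500. All 9 motor neuron markers of a fixed list had counts in every age and culture group. At E13.5, 8 endothelial markers summed to 14028 to 26603 normalised counts per library and 8 erythroid markers to 17242 to 19946, against 1789 to 3375 for the motor neuron markers. Neural progenitor markers summed there to 12741 to 20560, fibroblast markers to 2361 to 3788 and pericyte markers to 2217 to 2260. The endothelial sum was 5960 to 8109 at P4, 376 to 553 at P13, 12 to 32 at P56 and 5 to 20 at E10.5. At P13 the oligodendrocyte markers summed to 11605 to 11639, against 2070 to 2721 at P4. One RNA library is titled as DIV0 replicate 3 but was deposited as, and is treated here as, DIV28 replicate 3. The culture comparisons were therefore also fitted with that library left out and with it counted as DIV0. Of the 85 called values of named members in these comparisons, 36 kept their call with it counted as DIV0, 48 lost it and 1 changed sign, and the calls lost among the values printed are given beside them. In that library Epha4, Slit2 and Epha3 were at 13.1, 2350 and 309 normalised counts. The other DIV28 libraries had 15.1 and 6.46, 1310 and 1026, and 358 and 427. The DIV0 libraries had 339.7 and 514, 29060 and 30255, and 37.9 and 29. For these genes its levels were thus nearer those of DIV28. With it counted as DIV0, the DIV0 group holds unlike levels of these genes. In bulk samples fewer cells of a type and less RNA per cell cannot be told apart.

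A gene entered a test if it reached a CPM (reads scaled to library size) of 5 in every library of at least 1 group, which 67 members did in vivo. The remaining 7 (Epha1, Sema3b, Ntn5, Unc5cl and the 3 antisense transcripts) had too few counts to compare. A member was called changed at an unadjusted p below 0.001 and at least a 2-fold difference in edgeR's quasi-likelihood test, and adjusted p-values are Benjamini-Hochberg values over all genes of the fit. Consecutive comparisons share libraries, so their counts are not independent.

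Most of the change in these genes fell before P4. From E10.5 to E13.5, 14 of the 67 tested members rose and 26 fell, where 24.6% of all 15030 tested genes rose and 19.4% fell. The median log2 change was −0.72 over the tested members and 0.13 over all genes. From E13.5 to P4, 15 rose and 11 fell, against a background of 23.8% and 19%, with medians of 0.32 for the members and 0.12 for all genes. Without E13.5 replicate 2 this second count dropped from 26 to 15 members.

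From P4 to P13 the changes ran one way. No member rose and 15 fell, where 5.8% of all genes rose and 7.54% fell, and 60 of the 67 tested members had a negative log2 change. The member median was −0.74, against 0.05 over all genes. After P13 few members changed. From P13 to P21, 0 members rose and 1 fell (Unc50, which is no guidance gene), with 1.5% and 5.8% of all genes called, and without P13 replicate 2 that count was 0. From P21 to P56 none was called by edgeR (background 0.0466% higher and 0.126% lower) and 7 had an unadjusted p under 0.05. From P56 to 2 years again none was called by edgeR (0.499% higher and 0.186% lower), with 7 at an unadjusted p under 0.05. DESeq2 also called 0 members in both of these comparisons.

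**Figure D1:**
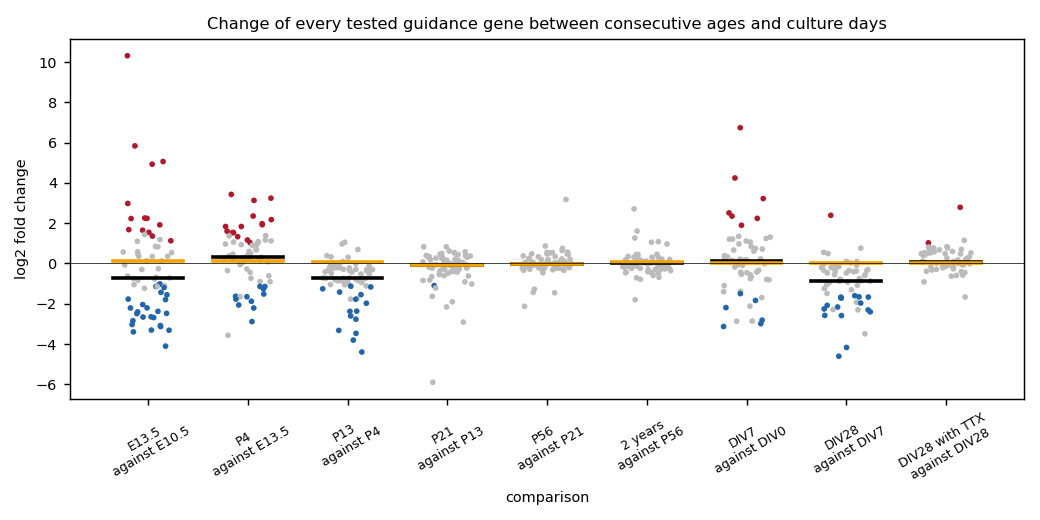
Each point is the log2 fold change (y axis) of 1 tested guidance gene in 1 of 9 consecutive comparisons (x axis), red where called higher, blue where called lower and grey where not called. Black lines are medians of the guidance genes and orange lines medians of all tested genes, and the fitted changes of genes with almost no counts in 1 group, such as Robo4 at 10.31 for E13.5, depend on the prior count. The points narrow after P13, and the black line lies below the orange one from P4 to P13 and from DIV7 to DIV28.

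Over the whole span from E13.5 to P56, 15 of the 67 tested members rose and 22 fell, where 29.7% of all genes rose and 26.7% fell. The neural progenitor sum went from 12741 to 20560 at E13.5 to 1831 to 2110 at P4 and 52 to 107 at P56. At E10.5 it had been 9392 to 10131. Of its 7 markers, 5 were called lower and 1 higher at E13.5 than at E10.5 (median log2 change −4.3). The sum and most of its markers thus moved in opposite directions there. The part of progenitors in the falls was not tested. As the E13.5 libraries hold many blood vessel transcripts, P56 was also set against E10.5 in a fit without the E13.5 and P4 libraries, a comparison added after the data were seen. Of 63 members tested there, 11 rose and 26 fell, where 36% of all 14257 genes rose and 31.5% fell. Their median log2 change was −0.79, against 0.14 for all genes. The direction differed by role. All 3 tested netrins and 6 of 7 tested ephrins fell and none of these rose, whereas 6 of 12 tested Eph receptors rose and 4 fell.

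Among the Eph receptors, Epha4, which steers limb-bound motor axons to the dorsal limb, fell early and again after birth. It stood at 1125, 1115 and 790.2 normalised counts in the E10.5 libraries, at 603 and 381 at E13.5, at 431, 393 and 444 at P4, and at 248 and 220.0 at P13. It was at 169, 207 and 195 at P21, 173, 147 and 179 at P56, and 188 and 149 at 2 years. Every E10.5 library lay above every later one, and every library up to P4 lay above every library from P13 on. The log2 change was −1.20 ± 0.19 (SE) from E10.5 to E13.5 (adjusted p = 2.9e-05), −0.06 from E13.5 to P4 (adjusted p = 0.78), and −0.76 ± 0.20 from P4 to P13 (adjusted p = 0.0061, short of 2-fold). From E10.5 to P56 it was −2.60 ± 0.17 (adjusted p = 2.1e-09).

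The upstream Epha4 starts lie on the minus strand of chromosome 1 at 77515083 to 77515088 (GRCm38, the build of the files). A further coding start inside the gene, at 77377607, had a peak in 7 of the 8 libraries from P13 on, in 1 of 2 at P4, in 1 of 4 embryonic ones and in none in culture. The 250 bases before the upstream starts are shown because a peak of open chromatin lay at these starts in all 22 ATAC libraries, whether Epha4 was high or low. They lie at chr1:77515089-77515338 on the minus strand, overlap an exon of the gene Gm28386, and hold 14 CG dinucleotides, written in capitals.
Epha4 promoter: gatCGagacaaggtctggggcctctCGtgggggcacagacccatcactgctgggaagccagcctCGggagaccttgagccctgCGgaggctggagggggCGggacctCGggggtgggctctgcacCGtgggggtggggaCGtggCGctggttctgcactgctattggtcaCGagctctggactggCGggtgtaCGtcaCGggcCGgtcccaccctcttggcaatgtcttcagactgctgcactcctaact

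Open chromatin within Epha4 differed between ages, with the ATAC-seq input and protocol also different at E10.5. In and up to 10 kb upstream of the gene there were 51 separate peak regions, using the 100000 highest-ranked peaks of each library. Both libraries shared 12 of them at E10.5, 10 at E13.5, 4 at P4, 9 at P13, 8 at P21, 7 at P56 and 7 at 2 years. Of these regions, 9 were in both E10.5 libraries and overlapped no peak of any rank at P56, and 0 showed the opposite pattern. The 9 lay 12.2, 18.1, 19.7, 21.1, 41.7, 79.9, 118.5, 131.6 and 133.9 kb downstream of the start. The 200 bases around the E10.5 summit of a pair of them, both intronic, are given with the 11 summit bases in capitals, since these had the best mean rank at E10.5 among the 9. They lie at chr1:77435184-77435383, 79.9 kb downstream, and at chr1:77502885-77503084, 12.2 kb downstream, both read on the minus strand.
Epha4 early region 1: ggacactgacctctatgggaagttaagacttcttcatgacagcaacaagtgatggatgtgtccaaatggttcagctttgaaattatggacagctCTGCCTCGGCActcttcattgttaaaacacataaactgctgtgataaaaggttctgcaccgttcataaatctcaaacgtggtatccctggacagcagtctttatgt
Epha4 early region 2: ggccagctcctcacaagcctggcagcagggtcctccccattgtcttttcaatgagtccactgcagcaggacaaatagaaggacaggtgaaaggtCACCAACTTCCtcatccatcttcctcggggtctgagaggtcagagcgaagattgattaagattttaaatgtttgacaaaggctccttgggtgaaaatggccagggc
At 79.9 kb the peak ranked 6789 and 9136 in the E10.5 libraries and 83539 and 79414 at E13.5, and no peak was called there at P21, P56 or 2 years.

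**Figure D2:**
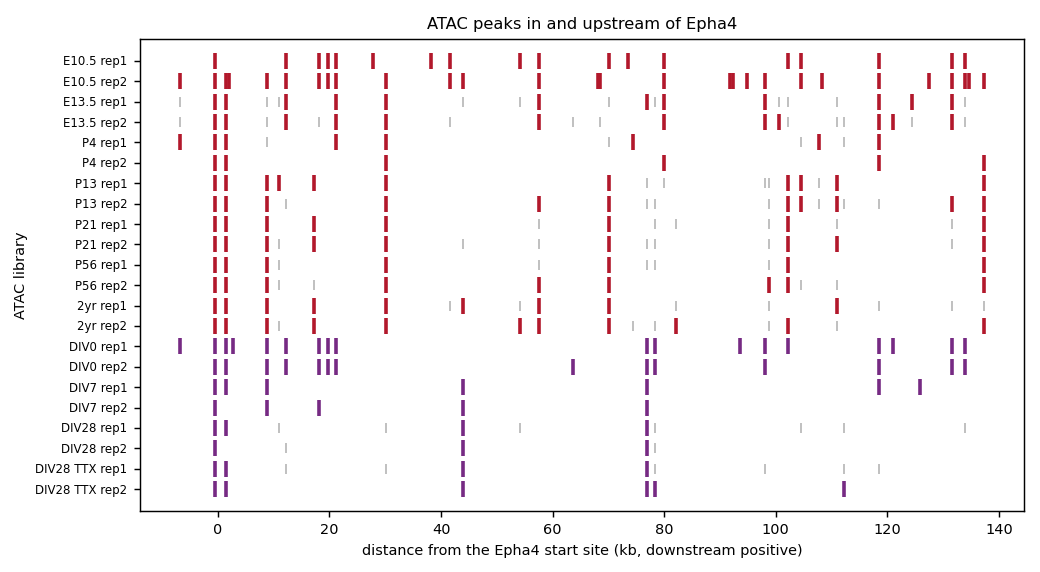
Each tick is a peak region in 1 of the 22 ATAC libraries (rows), placed by its distance in kb from the Epha4 start (x axis, downstream positive), coloured red in vivo or purple in culture where it is among the 100000 highest-ranked peaks of the library and grey where ranked lower. The start is marked in all 22 rows, and coloured ticks between 12.2 and 21.1 kb are present at E10.5 and DIV0 and absent at P56 and DIV28.

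Other Eph receptors rose while Epha4 fell. Epha6, a receptor of the A class, was at 3.05, 0 and 3.05 normalised counts at E10.5, 107 and 40.3 at E13.5, and 461, 643 and 570.1 at P4, and stayed at 331 to 534 in all libraries from P21 to 2 years. Its log2 change was 3.13 ± 0.33 from E13.5 to P4 (adjusted p = 2.8e-07). No P4 library overlapped an E13.5 library.

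Epha10, an atypical receptor that lacks kinase activity, read 96.2, 36.6 and 129.7 at E10.5, 60.9 and 31.3 at E13.5, 412, 392 and 329 at P4, and 629.7, 627 and 499 at P56. Its change from E13.5 to P4 was 3.24 ± 0.40 on the log2 scale (adjusted p = 1.9e-06). Epha5, a receptor of the same class, went from 140.5, 104 and 107 at E10.5 through 367 and 209 to 1108, 1253 and 1134 at P4 and was at 978, 852 and 992 at P56, a log2 change of 3.01 ± 0.14 over E10.5 to P56 (adjusted p = 6.4e-11). These 3 receptors were each higher in every P4 and later library than in any embryonic one.

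Epha7, Ephb6 and Epha8 also rose between E10.5 and P56, by 1.49, 1.87 and 2.29 on the log2 scale. Ephb2, a B-class receptor, went the other way. Its level was 1449, 999 and 1641 at E10.5 and 186 to 348 in every later in vivo library, a log2 change of −2.65 ± 0.23 to E13.5 (adjusted p = 1.8e-08). Ephb3 fell beside it with a log2 change of −3.13 ± 0.27 (adjusted p = 1.6e-08). Epha3, another A-class receptor, was at 326 and 169.9 at E13.5 and at 64.6, 61.6 and 83.1 at P56, lower by a log2 change of −1.67 ± 0.33 (adjusted p = 0.00018). Ephb1, which guides ventrally projecting limb axons, was at 155 and 85.4 at E13.5 and at 287, 360.3 and 279 at P4, higher by 1.54 ± 0.32 (adjusted p = 0.00042).

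**Figure D3:**
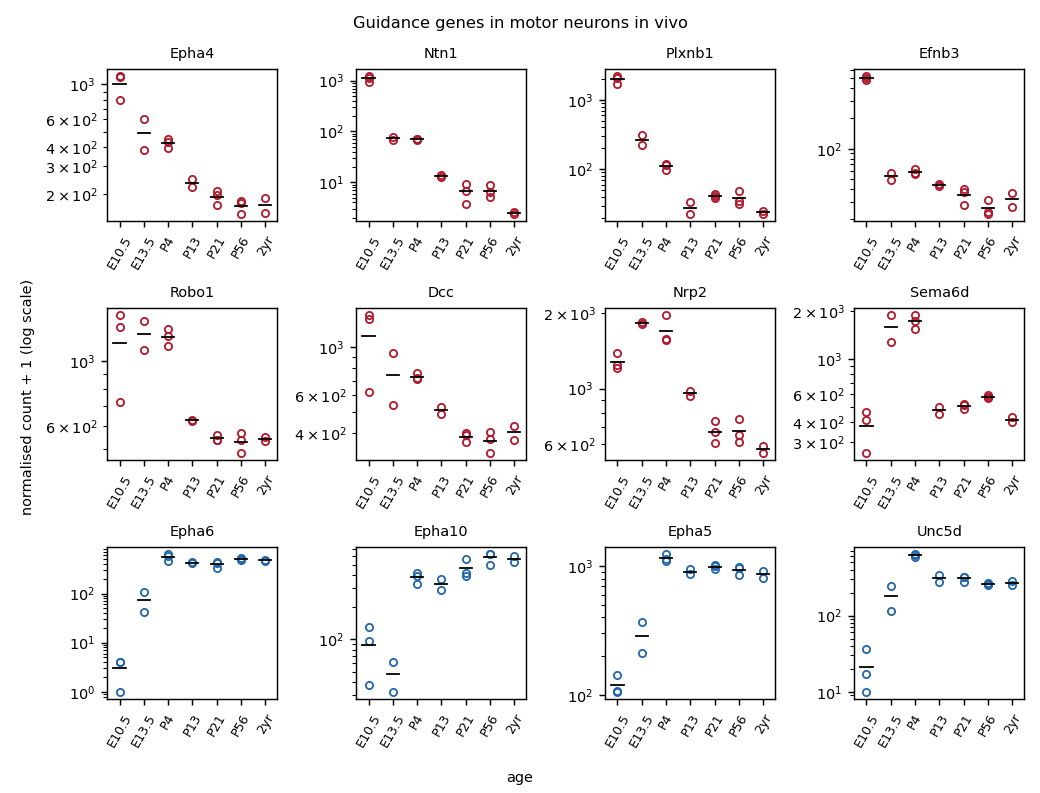
Normalised count plus 1 (y axis, log scale) of 12 guidance genes at each age (x axis), open circles for libraries and black bars for group means. Genes in red were lower at P56 than at E10.5 or E13.5 and genes in blue were higher. In the panel for Epha6 the P4 and later libraries lie between 331 and 643 and the E10.5 libraries at 0 to 3.05.

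The ephrins went down. From E10.5 to E13.5, 6 of the 8 fell, 1 rose (Efna1, taken up with the blood vessel genes) and Efnb2 was not called. Efnb3, a transmembrane ephrin that bars axons from the spinal midline, was at 476, 522 and 497 at E10.5, at 48 and 56.2 at E13.5 and at 30.2, 21.4 and 22.4 at P56. The first step was −3.39 ± 0.20 on the log2 scale (adjusted p = 2e-10). No E10.5 library overlapped a later one.

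Efnb1, another transmembrane ephrin, was at 279, 252 and 297 at E10.5, 79.4 and 55.3 at E13.5, 11.2, 8.73 and 23.7 at P4, and 1.38 to 8.44 in every library from P21 on. Efnb2 kept its embryonic level longer, with 648, 599 and 569 at E10.5, 608 and 859.7 at E13.5, 181, 175 and 187 at P4 and 88, 119 and 106 at P56, and its fall from E13.5 to P4 was −1.88 ± 0.18 (adjusted p = 9.9e-08). Both are membrane ligands of the B class. Efna5 and Efna2, GPI-anchored ligands of Epha receptors, were lower at P56 than at E10.5 by log2 changes of −2.37 ± 0.18 and −5.01 ± 0.34. Efna4 was at 73.3 to 74.7 at E10.5 and had no count in the P21, P56 and 2-year libraries.

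The start of Efnb3 carried an ATAC peak among the 100000 highest-ranked in 12 of the 22 libraries. All 4 libraries of P56 and 2 years and all 4 of DIV28 with and without TTX had a peak there of lower rank, between 113900 and 188640. In the E13.5 and P4 libraries it ranked 18819 to 23696.

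Ntn1, the founding netrin, fell both in the embryo and after birth. Its level was 1220, 955 and 1133 at E10.5, 75.7 and 67.8 at E13.5, 66.2, 71 and 68.6 at P4, 11.8 and 13 at P13, and 1.34 to 8.44 in all later libraries. No library of P13 or later overlapped any earlier one. Its log2 change was −4.10 ± 0.20 from E10.5 to E13.5 (adjusted p = 3.2e-11) and −2.38 ± 0.24 from P4 to P13 (adjusted p = 2e-06).

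The upstream Ntn1 start, at base 68400823 of chromosome 11 on the minus strand (GRCm38), had a peak in all 8 libraries from E10.5 to P13 and in 1 of 2 at P21. None of the 4 libraries of P56 and 2 years had one among their 100000 highest-ranked peaks, and 1 P56 library had one of lower rank. A second group of starts at 68386826 to 68387012 was open in all 22 libraries. In culture all 8 libraries had the upstream peak. In vivo that peak ranked 15487 and 11179 at E10.5, 64443 and 52529 at E13.5, 37302 and 54913 at P4 and 68535 and 90710 at P13. The 250 bases before the upstream start (chr11:68400824-68401073, minus strand, CG dinucleotides in capitals) are shown because this start lost its high-ranked peak by P56.
Ntn1 promoter: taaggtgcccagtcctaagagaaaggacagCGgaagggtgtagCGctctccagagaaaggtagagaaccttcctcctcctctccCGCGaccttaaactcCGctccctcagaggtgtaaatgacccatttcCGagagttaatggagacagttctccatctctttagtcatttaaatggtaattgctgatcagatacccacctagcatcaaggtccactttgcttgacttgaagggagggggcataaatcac

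Of the receptors for netrins, Dcc, which mediates attraction, was at 1410, 623 and 1350 at E10.5, 943 and 539 at E13.5, 722, 709.6 and 756 at P4, 527 and 491 at P13 and 374, 323 and 406 at P56. From E10.5 to P56 it fell by a log2 change of −1.61 ± 0.23 (adjusted p = 1.1e-05), and no step between neighbouring ages was called. The E10.5 and E13.5 groups overlapped, and every library up to P4 lay above every library from P13 on.

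The repulsive receptors Unc5c and Unc5d rose. Unc5c was at 323, 100.2 and 426 at E10.5, 2230 and 813 at E13.5, 1740, 1555 and 1778 at P4 and 913, 924 and 951 at P56, and Unc5d was at 16, 8.99 and 35.1 at E10.5, 241 and 115 at E13.5 and 593, 647 and 623 at P4. In neither gene did E10.5 overlap E13.5. Their log2 changes from E10.5 to E13.5 were 2.26 ± 0.40 (adjusted p = 7.4e-05) and 2.98 ± 0.35 (adjusted p = 8.6e-07). Unc5a fell over the same interval, with a log2 change of −2.38 ± 0.29 (adjusted p = 1.4e-06).

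Slit2 and Slit3, secreted repellents, were the most abundant members per length at P56. Their mean TPM (the length-corrected level within a library) was 117 ± 10 (SD, n = 3) for Slit2 and 146 ± 18.4 for Slit3, with every Slit3 library above every Slit2 library. The next members were Plxna1 at 35.5 ± 6.61, Epha10 at 31.4 ± 3.78, Epha5 at 25.2 ± 1.02, Epha6 at 25.1 ± 0.517 and Robo1 at 21.3 ± 1.35 TPM. Plxna1 and Epha10 did not differ beyond their spread, nor did Epha5 and Epha6.

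Across ages Slit2 was at 4054, 2581 and 4352 normalised counts at E10.5, 7058 and 3440 at E13.5, 6406, 5632 and 6657 at P4, 2521 and 2847 at P13 and 2868, 2662 and 2937 at P56. Its log2 change from P4 to P13 was −1.13 ± 0.25 (adjusted p = 0.0024). Slit3 ran the other way after E13.5, from 910.5 and 602 at E13.5 to 1912, 2140 and 1955 at P21 and 1578, 1717 and 1483 at P56, a log2 change of 1.23 ± 0.19 from E13.5 to P56 (adjusted p = 1.2e-05). At E10.5 Slit3 had been at 1432, 1281 and 1398, and at P4 it was at 915, 909 and 1264. Its change from E10.5 to P56 was 0.22 (adjusted p = 0.105) and not called. The P21 and P56 libraries of Slit3 all lay above both E13.5 libraries. Slit1 fell from 818, 699 and 877 at E10.5 to 163 and 116 at E13.5, a log2 change of −2.68 ± 0.24 (adjusted p = 4e-08).

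The Slit receptors Robo1 and Robo2 held through P4 and were lower from P13. Robo1 was at 1305, 725 and 1434 at E10.5, 1373 and 1089 at E13.5, 1215, 1126 and 1280 at P4, 623 and 630.4 at P13 and 485 to 569 in all later libraries. Every library of P13 or later lay below every earlier one. Its change from P4 to P13 was −0.86 ± 0.22 (adjusted p = 0.0058), below 2-fold, and from E13.5 to P56 it was −1.07 ± 0.21 (adjusted p = 0.00017). Robo2 was at 1311, 1487 and 1455 at P4 and 511 and 398 at P13, a log2 change of −1.54 ± 0.25 (adjusted p = 0.00015).

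Robo1 has several annotated starts, and their chromatin differed with age. At the most upstream one (base 72308306 of chromosome 16, plus strand, GRCm38) a peak was present in all 10 libraries from P4 to 2 years, in none of the 4 at E10.5 and E13.5 and in none of the 8 culture libraries, although 1 E13.5 library had a lower-ranked peak there. A downstream start at 72663149, inside an intron of the longer transcript, was open in all 22. The 250 bases before each start are set side by side, with CG dinucleotides in capitals, since the starts differed both in when they were open and in these letters. The upstream window, chr16:72308056-72308305, holds 1 CG, and the downstream window, chr16:72662899-72663148, holds 11.
Robo1 upstream start: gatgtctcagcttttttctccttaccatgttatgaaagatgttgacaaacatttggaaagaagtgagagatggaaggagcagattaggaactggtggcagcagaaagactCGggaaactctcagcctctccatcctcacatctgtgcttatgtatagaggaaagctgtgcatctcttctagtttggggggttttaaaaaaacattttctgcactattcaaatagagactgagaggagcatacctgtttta
Robo1 downstream start: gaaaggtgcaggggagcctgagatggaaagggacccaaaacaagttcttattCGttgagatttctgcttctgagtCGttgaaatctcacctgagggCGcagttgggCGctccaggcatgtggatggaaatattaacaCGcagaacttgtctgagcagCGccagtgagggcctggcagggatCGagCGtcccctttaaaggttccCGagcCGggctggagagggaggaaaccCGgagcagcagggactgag
The observed to expected ratio of CG was 0.0963 in the upstream window and 0.592 in the downstream one, against a median of 0.384 over 32851 RefSeq promoters and of 0.659 over 77 promoters of members. Gene-level counts do not separate the transcripts that begin at these starts.

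Among the secreted semaphorins, Sema3a, a repellent of motor and sensory axons that signals through neuropilin 1, was at 102, 139.6 and 74 at E10.5, 440.5 and 168 at E13.5, 883, 735 and 848 at P4, 445 and 448 at P13 and 346, 311 and 293 at P56. It rose by 1.36 ± 0.28 to E13.5 and by 1.60 ± 0.29 from there to P4 (adjusted p = 0.00034 and 9.4e-05). P4 stood above every other age without overlap. Sema3e, which binds plexin D1, was at 9.16, 22.1 and 7.63 at E10.5 and at 114, 114 and 113 at P56, higher by 3.10 ± 0.32 (adjusted p = 3e-07). Sema3f and Sema3d were lower at P56 than at E10.5, by log2 changes of −2.79 and −1.83. Sema3c, another secreted member, was not called in any step between neighbouring ages.

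The membrane semaphorins split. Sema6d, a ligand of A-class plexins, peaked at E13.5 and P4, with 411, 254 and 461 at E10.5, 1282 and 1875 at E13.5, 1886, 1717 and 1548 at P4 and 448 and 497 at P13. The fall from P4 to P13 was −1.77 ± 0.22 (adjusted p = 1.3e-05). Sema5b and Sema6c each had a log2 change of −3.31 from E10.5 to E13.5, and Sema4a, Sema4b and Sema4d rose from E13.5 to P56 by 2.98, 1.97 and 2.05. From E10.5 to P56 the changes of Sema4a, Sema4b and Sema4d were 1.78, −0.66 and 0.63, and only that of Sema4a was called.

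Plexins, the semaphorin receptors, were mostly lower after E10.5. From E10.5 to E13.5, 5 of the 11 plexins and neuropilins fell and 1 rose. Plxnb1, a receptor of class 4 semaphorins, was at 2039, 1675 and 2188 at E10.5, 224 and 310.2 at E13.5, 97.6, 112 and 119.8 at P4 and 21.6 and 32.5 at P13, with no overlap between any of these ages. The steps were −3.03 ± 0.21, −1.14 ± 0.20 and −1.97 ± 0.24 on the log2 scale (adjusted p = 1.3e-09, 6e-05 and 1.1e-05).

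The A-class plexins were less uniform. Plxna1 dipped from 2637, 2112 and 3234 at E10.5 to 603 and 520.0 at E13.5 and was at 1075, 1116 and 974 at P56, Plxna3 and Plxna2 fell from E10.5 to E13.5 with log2 changes of −1.79 and −1.04, and Plxna4, the main transducer of Sema3a with neuropilin 1, was not called between any neighbouring ages. Nrp1 and Nrp2, the neuropilins that bind secreted semaphorins, were higher at E13.5 than at P56. From E10.5 to P56 neither was called, at log2 changes of −0.40 (adjusted p = 0.089) for Nrp1 and −0.92 (adjusted p = 4.8e-06) for Nrp2. Nrp2 was at 1852 and 1810 at E13.5 and 753, 654 and 611 at P56 (log2 change −1.30 ± 0.15, adjusted p = 3.9e-07), and Nrp1 at 1508 and 1613 and then 639, 522 and 582 (−1.28 ± 0.24, adjusted p = 9.4e-05).

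A group of members followed a different course and peaked at E13.5. Plxnd1, a plexin known from blood vessels as well as neurons, was at 43.5, 42.2 and 41.2 at E10.5, 1754 and 3617 at E13.5, 891, 767 and 699 at P4, 52.5 and 52.9 at P13 and 8.07 to 42 thereafter. Robo4, a receptor of endothelial cells, had 1 count in all 3 E10.5 libraries together, and its normalised counts were 332 and 671 at E13.5, 202, 143 and 131 at P4 and 6.69 and 7.43 at P13. No E13.5 library of either gene overlapped another age.

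Efna1 (135 and 218 at E13.5, at most 5.34 at E10.5), Epha2 (116 and 196, against 19.8 to 42), Sema3g (86.8 and 218, against 28.3 to 55.7) and Unc5b (228 and 412, against 50.5 to 73.2) were likewise higher at E13.5 than at E10.5, with log2 changes of 5.06 ± 0.44, 2.23 ± 0.40, 1.65 ± 0.35 and 2.24 ± 0.26. Ephb4, the venous endothelial receptor for Efnb2, was at 270.2, 375 and 185 at E10.5 and 331 and 574 at E13.5, and these groups overlapped. From P4 to P13, 7 of the 15 members that fell belonged to this group: Plxnd1, Robo4, Ephb4, Epha2, Sema3g, Efna1 and Unc5b.

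Endothelial markers were also highest at E13.5. All 8 markers were called higher in E13.5 libraries relative to E10.5 and all 8 lower at P13 than at P4, and Pecam1, a defining endothelial gene, was at 1861 and 3526 at E13.5, 622 to 794 at P4 and 1.38 to 8.04 at P56. The methods report that bead-captured nuclei were less pure at E13.5 and P4, with some blood vessel contamination, than at P13 and older. Sorted nuclei for ATAC-seq were reported as highly pure at every age. How much of the change in these members came from vessel nuclei was not tested. In Chat-Cre cultures at DIV0 and DIV28 Robo4 had no count and Plxnd1 was at 22.9 to 78.4. Pecam1 was at most 1.53 there, while the sum of the 8 endothelial markers was 9 to 14 at DIV0 and 338 to 778 at DIV28, and Cdh5 reached 13.9. No ATAC peak was called at the Robo4 start in any library, including both at E13.5. The other members of the group differed from Robo4. The starts of Plxnd1, Efna1, Epha2, Sema3g and Unc5b each had a peak in both E13.5 libraries. Those of Plxnd1, Epha2 and Unc5b had one in all 22 libraries. At the Ephb4 start the E13.5 peaks were of low rank, at 143508 and 140788.

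**Figure D4:**
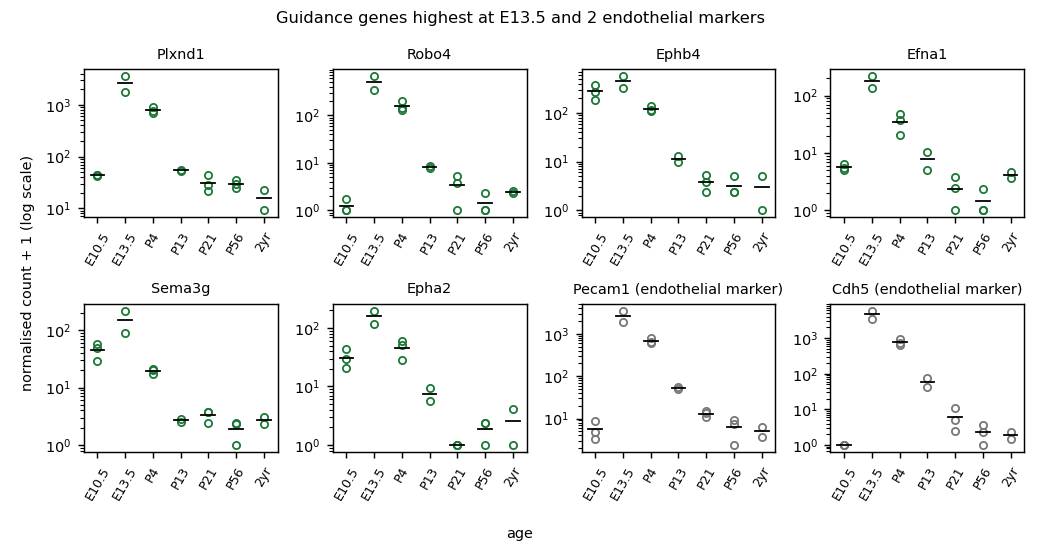
Normalised count plus 1 (y axis, log scale) at each age (x axis) for 6 guidance genes with their highest mean at E13.5 (green) and for the endothelial markers Pecam1 and Cdh5 (grey), with open circles for libraries and black bars for means. The green and grey panels share a peak at E13.5 and a drop between P4 and P13, as in Plxnd1 from 699 to 891 at P4 to 52.5 and 52.9 at P13.

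The same marker sums bear on the fall from P4 to P13, as does the reported rise in purity of captured nuclei between these ages. The 8 members outside the group above that fell were Ntn1, Plxnb1, Sema6d, Robo2, Sema4c, Plxnc1, Plxnb2 and Slit2. Between these ages the pericyte sum went from 3124 to 4700 down to 287 to 362, the neural progenitor sum from 1831 to 2110 down to 243 to 379, and the motor neuron sum from 4965 to 5787 to 4376 to 4684. The part of these cells in the 8 changes was not tested.

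In culture, 58 members passed the filter. From DIV0 to DIV7, 7 rose and 6 fell, where 8.36% of all 12890 genes rose and 2.81% fell. From DIV7 to DIV28, 1 rose and 16 fell, against 3.62% and 4.09% of all genes, and 51 of 58 tested members had a negative log2 change with a median of −0.87, against 0.02 for all genes. Without the library of disputed title 17 members were called in that second step. With it counted as DIV0, which places it with the DIV0 libraries and leaves 2 at DIV28, 3 members were called in the first step and 2 in the second. Leaving out DIV0 replicate 2, DIV7 replicate 1 or DIV7 replicate 2 gave 8 calls in the first step.

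Slit2 and Slit3 were at their highest at DIV0. Slit2 was at 29060 and 30255 normalised counts at DIV0, 3915 and 3544 at DIV7 and 1310, 1026 and 2350 at DIV28, and Slit3 at 4935 and 5873, then 789.7 and 741, then 1182, 434 and 813. For Slit2 the 3 time points did not overlap, and for Slit3 DIV7 and DIV28 did. Their log2 changes from DIV0 to DIV7 were −2.98 ± 0.53 (adjusted p = 0.0019) and −2.81 ± 0.55 (adjusted p = 0.0035), and with the disputed library counted as DIV0 they were −2.51 and −2.38 and no longer called.

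Epha3 and Ephb1 rose in the first week. Epha3 went from 37.9 and 29 at DIV0 to 653 and 619 at DIV7 and was at 358, 427 and 309 at DIV28, a first change of 4.24 ± 0.30 on the log2 scale (adjusted p = 5.3e-06, or 2.32 and not called with the disputed library as DIV0). Ephb1 went from 267 and 191 to 1035 and 1564 and then to 387, 436 and 385, with changes of 2.51 ± 0.29 (adjusted p = 0.00013) and −1.67 ± 0.25 (adjusted p = 0.0016). Neither gene overlapped between DIV0 and DIV7. With that library as DIV0, Ephb1 was at 2.19 and called in the first step and at −1.66 and not called in the second.

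Sema3e had 3 counts in both DIV0 libraries together, and its normalised counts were 283 and 193 at DIV7 and 233, 441 and 516 at DIV28. Its fitted change from DIV0 therefore depends on the prior count, and it was 0.44 and not called with the disputed library as DIV0. Unc5d and Plxnc1, a receptor of Sema7a, rose by 3.22 and 2.35 on the log2 scale. With that library as DIV0 Unc5d was at 1.73 and not called, and Plxnc1 was at 1.88 and called. Sema5a, a transmembrane semaphorin with thrombospondin repeats, fell from 821 and 844 at DIV0 to 76.9 and 111 at DIV7 and rose to 479, 528 and 459 at DIV28, and both steps were called with the disputed library as DIV0 as well.

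The second step in culture was a fall that included receptors of all 4 systems. Epha4 was at 339.7 and 514 at DIV0, 180.1 and 217 at DIV7, and 15.1, 6.46 and 13.1 at DIV28. Its 3 time points did not overlap, and the change from DIV7 to DIV28 was −4.17 ± 0.38 (adjusted p = 0.00018), or −4.34 without the disputed library. Dcc fell from 1955 and 1893 at DIV0 through 1127 and 1059 to 206, 159 and 248, with −2.40 ± 0.28 in the second step (adjusted p = 0.00055). With that library as DIV0 the 2 changes were −4.29 and −2.58 and not called.

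Plxnb1, Robo1, Robo2 and Nrp2 fell over the same interval with changes of −4.60 ± 0.55, −1.72 ± 0.28, −1.96 ± 0.27 and −1.67 ± 0.33 on the log2 scale. With the disputed library as DIV0 they were −5.54, −1.72, −1.99 and −1.90, and none of the 4 was called. By role, the 16 members that fell were 5 plexins or neuropilins, 4 Eph receptors, 3 membrane semaphorins, both tested Robo receptors, 1 netrin and 1 netrin receptor. No ephrin, secreted semaphorin or Slit was among them, but only 5, 5 and 3 of these were tested. Their median log2 changes were −0.95, −1.3 and −0.38, against −0.86 for Eph receptors and −1.3 for plexins or neuropilins. The absence of calls thus does not set these ligands apart from the receptors. Astrocyte markers summed to 376 to 498 at DIV0, 733 to 1337 at DIV7 and 236 to 717 at DIV28, and fibroblast markers to 130 to 2275 at DIV7 and 2 to 414 at DIV28. The astrocytes are mouse cells too, and their part in the fall was not tested.

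**Figure D5:**
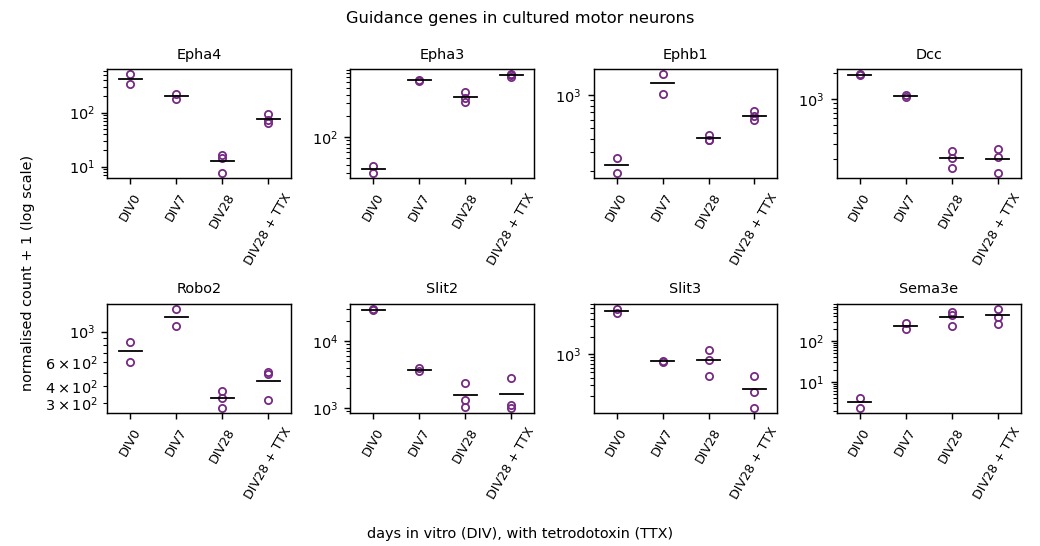
Normalised count plus 1 (y axis, log scale) of 8 guidance genes at DIV0, DIV7, DIV28 and DIV28 with TTX (x axis), with open circles for libraries and black bars for means. Epha4 lies at 6.46 to 15.1 at DIV28 and at 63.5 to 94.7 with TTX, while Dcc, Robo2 and Slit2 overlap between those groups.

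Epha4 was higher in DIV28 cultures grown in TTX. Its level was 72.2, 63.5 and 94.7 with TTX and 15.1, 6.46 and 13.1 without, with no overlap, a log2 change of 2.79 ± 0.36 (adjusted p = 0.012). The TTX libraries remained below every DIV7 and DIV0 library. The call held in each fit that left out 1 library, at 2.42 to 3.01, and it was lost, at 2.90, when the disputed library was counted as DIV0. Epha3, at 720.2, 776 and 767 with TTX and 358, 427 and 309 without, met the call rule by a narrow margin at 1.02 ± 0.20 (adjusted p = 0.072), and it was not called without DIV28 replicate 1, DIV28 replicate 3 or TTX replicate 2, nor, at 0.93, with the disputed library as DIV0.

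These were the 2 members that rose, 0 fell, and 0.279% of all genes rose and 0.403% fell. Slit3 was at 426, 124 and 229.7 with TTX against 1182, 434 and 813, a log2 change of −1.67 ± 0.44 (adjusted p = 0.19). Notes supplied with the study pair the DIV28 and TTX cultures by replicate number. With that pairing in the fit Slit3 was called lower as well, which brought the count to 3. In total 9 members had an unadjusted p under 0.05, of which 8 were higher with TTX, Ephb1 at 0.67 and Efnb2 at 0.77 on the log2 scale among them. Slit2 (0.05 ± 0.40) and Dcc (−0.05 ± 0.26) showed changes smaller than their errors. Neural progenitor markers summed to 1545 to 1914 with TTX and 844 to 868 without, and 0 of the 4 tested markers were called. Their part in these changes was not tested.

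Culture was also set against tissue, with 67 members tested in a joint fit. At the immature end, DIV0 against E13.5, 18 members were higher in culture and 11 lower, where 15.1% of all 15521 genes were higher and 24.3% lower. Of the 9 motor neuron markers, 5 were higher in culture and 0 lower, with a median log2 difference of 1.67. The part of other cells in the E13.5 libraries in these differences was not tested. All 3 Slits were higher in culture, Slit2 by 2.48 ± 0.32 and Slit3 by 2.82 ± 0.31 on the log2 scale (adjusted p = 1.2e-06 and 1.1e-07), as were Epha10 by 3.97 ± 0.40 and Unc5a by 2.89 ± 0.31. Of the 11 that were lower, 6 belonged to the group with its peak at E13.5, namely Robo4, Plxnd1, Ephb4, Efna1, Epha2 and Sema3g. Counting the disputed library as DIV0 gave 19 calls in place of 29 and turned the sign of Sema3e. Slit2 was then at 1.91 and not called, while Slit3 at 2.29, Epha10 at 3.46 and Unc5a at 2.42 were called.

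At the mature end, DIV28 against P21, 13 members were higher in culture and 14 lower, against 13.3% and 13.1% of all genes. Epha4 was lower, with a log2 difference of −4.13 ± 0.28 (adjusted p = 1.9e-10), and so was Epha6, at 31.3, 35.2 and 32.8 in DIV28 against 331, 422 and 428 at P21, with −3.50 ± 0.28 (adjusted p = 2e-09). Neither gene overlapped. Epha6 stayed at 31.3 to 39.4 in all 10 culture libraries.

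Sema6d (2592, 2525 and 2636 against 479.7, 512 and 521) and Epha3 were higher at DIV28 than at P21, by 2.41 ± 0.18 and 2.32 ± 0.29 on the log2 scale. Ntn1 was at 49.8, 94.3 and 45.9 at DIV28 and 2.76 to 8.44 at P21. Nrp1 and Nrp2 were lower in culture, with log2 differences of −1.81 ± 0.24 and −1.67 ± 0.20. Without the disputed library 27 members were called, and with it as DIV0 15. Nrp2 was then at −1.86 and not called, while Epha4 (−4.24), Epha6 (−3.47), Sema6d (2.42), Epha3 (2.44) and Nrp1 (−2.10) were called.

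The change from DIV0 to DIV28 was tested directly against the change from E13.5 to P21. In this interaction 11 members were more positive in culture and 23 more negative, where 24.2% of all genes were more positive and 17.5% more negative. Of the 9 motor neuron markers, 1 was more positive and 3 more negative, with a median of −1.46. The E13.5 libraries also held many vessel, blood and progenitor transcripts, whose part in these differences was not tested. The log2 change in culture minus that in tissue was −3.91 ± 0.39 for Epha4 (adjusted p = 2.2e-08), −2.23 ± 0.37 for Dcc and −3.46 ± 0.41 for Slit2. Slit3 went from 910.5 and 602 to 1912, 2140 and 1955 in tissue and from 4935 and 5873 to 1182, 434 and 813 in culture, a difference of −4.08 ± 0.39 (adjusted p = 1.4e-08). Epha10 went in tissue from 60.9 and 31.3 to 568, 394 and 417 and in culture from 739.6 and 676 to 162, 100.1 and 147, a difference of −5.68 ± 0.50 (adjusted p = 4.5e-09). Epha3 went from 326 and 169.9 to 72.7, 98.4 and 58 in tissue and from 37.9 and 29 to 358, 427 and 309 in culture, a difference of 5.20 ± 0.48 (adjusted p = 9.3e-09). Without the disputed library 35 members were called, and with it as DIV0 19. Epha4 (−3.39) and Dcc (−1.82) were then not called, while Slit2 (−3.28), Slit3 (−3.53), Epha10 (−5.20) and Epha3 (3.43) were.

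By TPM, the 10 most abundant members of P56 and of DIV28 had 6 genes in common: Slit2, Slit3, Plxna1, Epha5, Unc5c and Sema6a. At DIV28 the highest were Slit3 at 37.7 ± 20.4 (SD, n = 3), Sema6d at 34.2 ± 5.71, Slit2 at 29.3 ± 8.49 and Unc5c at 25.3 ± 2.48 TPM, and the ranges of neighbours in this order overlapped.

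Most gene starts carried a peak at every age. Of the 74 members, 55 to 66 had an ATAC peak within 1000 bp of the gene start in a library, whereas 58.9% to 64.6% of 21938 protein-coding genes did. In 52 members the peak was present in all 22 libraries, in 7 in none and in 15 in some. The 52 included Epha4, Epha6, Slit2, Dcc and Plxnb1, whose transcripts changed with age. The rank of the peak at these starts was not constant, and ran from 3686 to 40934 for Slit2, from 16520 to 59045 for Dcc and from 5037 to 91787 for Plxnb1. Of the 15, Robo1, Ntn1 and Efnb3 are described above. The gene start of Sema3a, a non-coding transcript, was open in all 14 in vivo libraries and in none of the 8 in culture, while its coding starts at 13398688 to 13399324 of chromosome 5 (GRCm38) were open in all 22 and a further coding start at 13396784 in none. An internal Sema4d start was open in 12 of 14 in vivo libraries, all but those of E10.5, and in none in culture.

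In the members and within 10 kb upstream there were 2991 peak regions, starts included. Both libraries shared 415 of these at E10.5, 632 at E13.5, 473 at P4 and 538 at P56, and 645 at DIV0, 401 at DIV7, 436 at DIV28 and 422 with TTX. Regions open in both E10.5 libraries and covered by no P56 peak numbered 164, and those with the opposite pattern 255, where all peaks of the genome gave 18904 and 41050. Member regions were merged over all libraries, whereas the genome figures here and below count peaks of replicate 1 of the open group. Robo1 had 14 and 10 of these, Dcc 13 and 9, and Epha4 9 and 0, whereas Unc5d, which rose, had 4 and 23. The numbers did not follow the transcript in every member. Epha5 and Sema3e, which rose, had 7 and 1 and 5 and 2, and Ephb2 and Slit1, which fell, had 2 and 7 and 1 and 8. In culture 274 regions were lost between DIV0 and DIV28 and 235 gained, where all peaks gave 24445 lost and 46486 gained. Epha4 had 7 lost and 1 gained, and the gained one, 44.0 kb downstream of the start, was present in both DIV7, both DIV28 and both TTX libraries. As E10.5 replicate 1 had 80386 peaks in all, numbers of shared regions at that age are limited by that list. The ATAC-seq input and protocol also differed between E10.5 and P56.

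The letters around the summits of these regions were near those of all peaks with the same time course, though summits were chosen differently. For a member region the summit was that of the best-ranked peak in any library. For all peaks it was the summit of the peak itself in a single library of the open group. Both strands were searched within 150 bases of the summit for TGANTCA, the AP-1 core, and TAATTA, a homeodomain core. TGANTCA was found in 8.54% of the 164 early regions of members and 22.4% of the 255 late ones, where all peaks with those patterns gave 7.39% and 21.7%. In culture it was found in 7.66% of the lost and 62.6% of the gained regions, against 6.86% and 67.9% of all such peaks. TAATTA was found in 17.2% of the lost and 6.81% of the gained regions, against 15.7% and 6.02%. The promoter and region sequences shown above hold neither motif, and 7.81% and 5.29% of RefSeq promoters of 300 bases hold TGANTCA and TAATTA.

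Related genes outside the set were counted in the same way. Of 48 tested downstream effectors of guidance receptors, 13 rose and 15 fell from E13.5 to P56, or 27.1% and 31.2%, near the 29.7% and 26.7% of all genes. Among those that fell were Cfl1 and Rhoa, which remodel actin, with log2 changes of −4.60 and −3.51, and Gap43, the growth cone protein, with −3.60, and among those that rose was Mical2, of the flavoprotein family that oxidises actin, by 4.15. From P4 to P13 2 rose and 2 fell, and from DIV7 to DIV28 2 rose and 5 fell. With TTX 0 were called by edgeR.

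Of 40 further guidance and adhesion genes, 14 rose and 10 fell from E13.5 to P56, or 35% and 25%, also near the shares of all genes. Draxin and Boc, midline guidance genes, fell with log2 changes of −4.28 and −1.91, and Dscam and Celsr3, adhesion receptors, rose by 2.54 and 3.04. From P4 to P13, 0 rose and 6 fell, among them the chemokine Cxcl12 and its receptor Cxcr4 with log2 changes of −3.40 and −4.30. From DIV7 to DIV28 1 rose and 5 fell, and with TTX 1 rose, the adhesion protein Cntn3 (2.28, adjusted p = 0.13).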

How the data were processed

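Reads had been trimmed, aligned to the mouse genome mm10 (GRCm38) with STAR 2.5.2b and counted with RSEM 1.3.0 by the authors, who deposited expected counts and TPM per gene for each RNA library. For ATAC-seq the authors called peaks per library with MACS2 2.2.7.1 and deposited for each peak its fold enrichment, a ratio to background, and −log10 p. Here peaks were ranked by −log10 p. The RNA kit kept strand.

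Members were found by symbol. The members and lists were chosen with earlier results of these data known. Named genes were a fixed set of motor axon guidance genes, the 6 called members with the largest change in each direction per comparison, and the 10 highest by TPM at P56. Other members are named as examples after their values were seen.

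Expected counts were rounded to whole numbers and scaled by TMM factors. Fits with edgeR 4.0.16 (glmQLFit, glmQLFTest) used all in vivo libraries, all culture libraries, or all libraries without TTX, on genes whose CPM was 5 or more throughout some group's libraries. Normalised counts are expected counts over size factors from medians of ratios. Standard errors are those of the fitted log2 changes. The fit was tested on simulated data with 200 changed genes. TPM served only for order among genes within a condition, with no test. P-values measure the spread between libraries of a group. Intervals between replicates of 2 or 3 libraries are wide, and depth sets how low a level can be compared, since a level of 1 rests on about 1 read.

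DIV28 and TTX libraries of the same number are paired in the study's notes, and their deviations from the group means correlated at 0.582, 0.505 and 0.665. DESeq2 1.42.0, other size factors, no filter, an adjusted threshold, a replicate block, fits on the compared libraries alone and leaving out each replicate were tried as alternatives. For each ATAC library the 100000 peaks of highest rank were used, and a start was open if a peak lay within 1000 bp. Read depth behind the peaks is unknown. Sequences were read from GRCm38, and all 32851 RefSeq promoters of the table matched that genome. Protein sequences were not used here.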

Additional observations from a re-analysis of the deposited data

Results flagged for a closer look

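In 19 named members the log2 change from DIV0 to DIV28 differed from that from E13.5 to P21 in edgeR's interaction test. The value, culture minus tissue, was more positive in culture for Epha2 (11.58), Efna1 (8.19), Sema3g (6.56), Sema3e (6.52), Plxnd1 (6.27), Epha3 (5.20), Ntn1 (2.23) and Efnb2 (1.18). It was more negative for Ephb2 (−1.40), Nrp2 (−2.00), Plxna1 (−2.02), Plxna3 (−2.14), Dcc (−2.23), Epha8 (−3.13), Slit2 (−3.46), Epha4 (−3.91), Slit3 (−4.08), Sema5b (−5.64) and Epha10 (−5.68). The values of Epha2, Efna1, Sema3g and Sema3e rest on a group with 3 counts or fewer and depend on the prior count. Efna1, Epha2, Sema3g and Plxnd1 were high in the E13.5 libraries that also held endothelial markers. In the same test the 9 motor neuron markers had a median of −1.46, with 1 called more positive and 3 more negative. With the library titled DIV0 replicate 3 counted as DIV0, 9 of the 19 were no longer called: Sema3e (0.05), Efnb2 (1.47), Ephb2 (−0.90), Nrp2 (−1.63), Plxna1 (−1.58), Plxna3 (−1.67), Dcc (−1.82), Epha8 (−2.38) and Epha4 (−3.39). Groups of 2 or 3 libraries allowed no search for single outlying libraries.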

How the results depend on the processing

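Of 1924 values of named and called members under an alternative, 1726 kept direction and call, 197 lost the call and 1 changed direction: Sema3e in DIV0 against E13.5, at 2.07 with the library titled DIV0 replicate 3 counted as DIV0. That count of that library gave 3 called members in DIV7 against DIV0, 2 in DIV28 against DIV7, 0 with TTX, 19 in DIV0 against E13.5, 15 in DIV28 against P21 and 19 in the interaction. With only the compared libraries in the fit, 26 members were called in E13.5 against E10.5, 21 in DIV7 against DIV0 and 1 with TTX. At an adjusted p under 0.05, 22 were called in DIV7 against DIV0, 3 in P21 against P13 and 1 with TTX. Without a filter and with DESeq2, 2 were called in P21 against P13. The cause was not tested.

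Leaving out 1 library gave 33 to 45 called members in E13.5 against E10.5, 15 to 30 in P4 against E13.5, 11 to 15 in P13 against P4, 0 to 1 in P21 against P13, 30 to 35 in P56 against E13.5, 8 to 9 in DIV7 against DIV0, 12 to 17 in DIV28 against DIV7, 1 to 3 with TTX, 22 to 30 in DIV0 against E13.5, 21 to 27 in DIV28 against P21 and 29 to 35 in the interaction. With the replicate block, where the numbers pair cultures for DIV28 and TTX only, 3 members were called with TTX, 16 in DIV7 against DIV0, 19 in DIV28 against DIV7, 36 in E13.5 against E10.5, 25 in P4 against E13.5, 16 in P13 against P4 and 36 in P56 against E13.5. Depth limits members near 0 in a group, whose fitted changes are not bounds.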
